A study of Mus musculus with 6 samples.

Results

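Gap junctions are clusters of channels that join the cytoplasm of neighbouring cells. Each cell contributes a ring of connexin subunits, and ions, calcium signals and small metabolites pass through the paired rings. In pancreatic islets, connexin Cx36, encoded by Gjd2, couples beta cells electrically and helps them to fire and secrete together. Other connexins are known from the vessels and exocrine cells of the pancreas. Pannexin 1, encoded by Panx1, is a related membrane channel that releases ATP and does not usually form junctions between cells.

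The levels of 8 genes were examined, the 7 connexin genes Gjd2, Gja1, Gja4, Gja5, Gjb1, Gjb2 and Gjc1 together with Panx1. They were chosen by symbol, as every probe set on the array with a single platform gene symbol among the 8, which gave 16 of 45101 probe sets. The table names 18194 genes in all. Islets were freed from the pancreas with collagenase. Their RNA was put on 3 arrays for mice that were not pregnant (0 days post coitum, dpc) and on 3 arrays for mice at 12.5 dpc, in mid-pregnancy, when islets grow. Neither strain, age nor the number of animals per array is given in the sources used here, so the p-values cover the spread between samples that may be only technical replicates. Each value is a MAS5 signal, an intensity that the authors scaled to the same trimmed mean on each array, and the number of arrays limits the precision.

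None of the gap junction genes passed the test for a difference between pregnant and non-pregnant islets. Of the 8 genes, 6 had a probe set bright enough to be tested, and 0 of these rose or fell at an adjusted p of 0.05 in limma, where 11.9% of the 12914 genes tested did (6.10% higher and 5.79% lower). At an unadjusted p of 0.05 there were 3 of 6, beside 27.2% of all genes tested (12.2% higher and 15.0% lower). These were Gjd2 and Gja1, with lower values in pregnancy, and Panx1, with higher values, and they were also the 3 genes whose groups did not overlap, against 31.8% of all genes tested (13.9% higher and 17.9% lower). The 6 genes had a median log2 difference of -0.17, beside -0.036 over all genes. The difference was negative in 5 of 6, against 56.5% of all genes. Differences are of log2(signal + 16) throughout, pregnant minus non-pregnant, and 3 arrays against 3 cannot give an exact permutation p below 0.10.

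The sequence upstream of a gene's start is shown for the 3 genes whose groups did not overlap and for Gja5, whose signals were near background. Of the 8 genes, 7 matched the RefSeq promoter table (build GRCm38.p6), all but Gjc1. The 250 bases before each start are given 5′ to 3′ on the gene's strand. Capitals mark matches, on either strand, to the GC box letters GGGCGG or to TGACG, the core of a cAMP response element.
Gjd2: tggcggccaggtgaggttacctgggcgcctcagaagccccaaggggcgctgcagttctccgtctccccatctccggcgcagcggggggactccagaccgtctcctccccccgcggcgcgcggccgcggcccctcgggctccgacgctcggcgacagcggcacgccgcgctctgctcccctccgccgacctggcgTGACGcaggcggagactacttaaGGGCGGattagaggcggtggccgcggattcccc
Gja1: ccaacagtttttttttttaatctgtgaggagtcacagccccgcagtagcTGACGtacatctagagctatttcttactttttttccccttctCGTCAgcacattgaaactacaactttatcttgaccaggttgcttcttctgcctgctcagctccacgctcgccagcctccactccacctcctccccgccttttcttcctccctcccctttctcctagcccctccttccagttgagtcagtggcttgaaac
Panx1: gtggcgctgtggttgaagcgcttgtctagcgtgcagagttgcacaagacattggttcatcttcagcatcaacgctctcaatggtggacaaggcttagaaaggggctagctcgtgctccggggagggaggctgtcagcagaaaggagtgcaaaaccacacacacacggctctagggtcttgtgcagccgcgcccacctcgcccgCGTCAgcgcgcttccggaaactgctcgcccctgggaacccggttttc
Gja5: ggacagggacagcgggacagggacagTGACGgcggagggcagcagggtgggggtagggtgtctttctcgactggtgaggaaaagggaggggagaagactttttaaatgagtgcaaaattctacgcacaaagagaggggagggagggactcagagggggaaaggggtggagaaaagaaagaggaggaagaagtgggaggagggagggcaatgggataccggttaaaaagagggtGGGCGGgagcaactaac

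These windows lie at chr2:114013620-114013869 on the minus strand for Gjd2, chr10:56377050-56377299 on the plus strand for Gja1, chr9:15045479-15045728 on the minus strand for Panx1 and chr3:97032152-97032401 on the plus strand for Gja5. The Gjd2 window was the most CpG-rich of the member windows, with 33 CpG pairs and a GC content of 74%, against medians of 6 pairs and 52.4% over 32851 mouse windows of the same length. Gja1 had 6 CpG pairs, Gja5 had 7 and Panx1 had 17, and the 4 windows of Gjb1 had between 1 and 10. TGACG was found in at least 1 window of 6 of the 7 genes, all but Gjb1. It stood in 17.8% of all windows and in 27.5% of those with at least 6 CpG pairs. The letters GGGCGG were found for 5 of the 7 genes, in 32.7% of all windows and in 58.6% of those with at least 6 CpG pairs. Genes were counted by any of their windows, and Gjb1 had 4, while the shares are of single windows. STAT5 acts downstream of the lactogenic hormones of pregnancy, and its site TTCNNNGAA was found in the windows of 0 of the 7 genes. It stood in 7.02% of all windows and in 5.39% of those with at least 6 CpG pairs. At such low shares, its absence from the 10 windows of these genes says little. TATAAA was found for 1 gene, Gjb1, in 12.4% of all windows and in 5.62% of those with at least 6 CpG pairs.

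Gjd2, the beta cell connexin, had signals far above background in both groups and differed little between them. On its brighter probe set (1435297_at) the non-pregnant arrays read 7956, 7675 and 8734 and the pregnant arrays 7479, 7465 and 7031. All 3 pregnant values lay below all 3 non-pregnant ones, and the gap between the groups was narrow. The means were 8122 ± 548 (SD, n = 3) and 7325 ± 255 (n = 3), a ratio of 0.902. The log2 difference was -0.15 ± 0.062 (SE; limma adjusted p = 0.18), with an unadjusted 95% interval of -0.28 to -0.011, or 0.822 to 0.992 as a ratio.

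The other Gjd2 probe set (1423019_at) read 1054, 992 and 1158 on non-pregnant and 1105, 1100 and 967 on pregnant arrays, and here the groups overlapped. Its log2 difference was -0.015 ± 0.094 (limma adjusted p = 0.95; interval -0.22 to 0.19). It was positive, at 0.044 when non-pregnant replicate 3 was left out and at 0.047 when pregnant replicate 3 was. With both probe sets averaged, Gjd2 had -0.081 (limma adjusted p = 0.53), and with each array centred on its median the brighter one had -0.072 (limma adjusted p = 0.72).

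**Figure D1:**
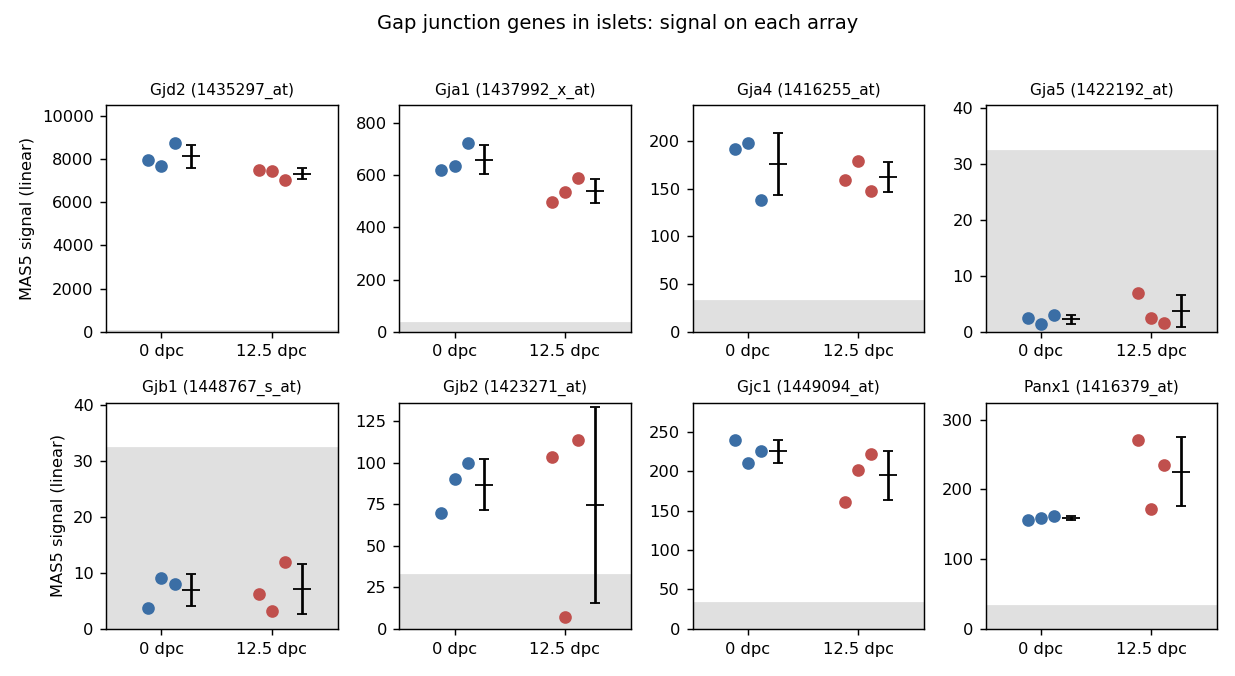
MAS5 signal (linear axis from 0) of each gap junction gene on the 3 non-pregnant (0 dpc, blue) and 3 pregnant (12.5 dpc, red) arrays, with the mean and SD in black. The grey band is the range up to 32.3 reached by the 3 bacterial TrpnX control probe sets. The pregnant Gjd2 and Gja1 points lie below and the pregnant Panx1 points above all non-pregnant ones, Gja5 and Gjb1 lie wholly in the grey range, and 1 pregnant Gjb2 array falls into it.

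The summed signal of the beta cell markers was level across the same arrays. It lay between 166724 and 177298 on non-pregnant and between 169952 and 172601 on pregnant arrays. The sum is led by the brightest markers, Iapp and G6pc2, and can hide changes in the others. On pregnant replicate 1, Iapp gave the highest signal of the whole array. Whether such bright signals were too near the upper limit of the measurement to show a change was not tested. Of 8 beta cell markers tested, 0 rose and 2 fell, the glucose transporter Slc2a2 (-0.25 ± 0.047, limma adjusted p = 0.0063) and the zinc transporter Slc30a8 (-0.29 ± 0.061, limma adjusted p = 0.010). The list had a median log2 difference of 0.037. RNA was extracted from whole islets, so fewer cells of a type and less RNA per cell cannot be told apart.

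The 5 genes whose log2 values over the 6 arrays were most like those of the brighter Gjd2 probe set, among 12908 genes, were Thumpd1 (Pearson r = 0.989), Dnajc12 (0.980), Tyk2 (0.979), Gcnt2 (0.978) and Gipc2 (0.977). All of them had negative log2 differences, from -0.32 for Gcnt2 to -0.16 for Dnajc12. Genes chosen to be so like Gjd2 had to share its negative sign, so these signs add nothing to it. Gcnt2 alone of the 5 passed the test (limma adjusted p = 0.045). An r above 0.95 was reached by 26 genes, and how many would reach it by chance was not worked out. These are descriptions over 6 arrays that share 1 scaling.

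Gja1 encodes Cx43, the most widespread connexin, which is known from fibroblasts, smooth muscle and endothelium. It had 6 probe sets, of which 5 were tested, and all 6 had a lower mean in pregnancy. On the brightest (1437992_x_at) the non-pregnant arrays read 619, 636 and 723 and the pregnant arrays 497, 534 and 588. The groups did not overlap, although the highest pregnant array came close to the lowest non-pregnant one. The means were 659 ± 55.6 (SD, n = 3) and 540 ± 45.5 (n = 3), and the log2 difference was -0.28 ± 0.11 (limma adjusted p = 0.14; unadjusted interval -0.52 to -0.042).

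The other tested Gja1 probe sets had log2 differences of -0.17, -0.29, -0.076 and -0.28, with adjusted p-values in limma from 0.39 to 0.83. On 1415800_at the groups did not overlap either, with 387, 402 and 419 on non-pregnant against 348, 382 and 342 on pregnant arrays. On the remaining 3 they did. The probe set 1438650_x_at, at -0.076, had 0.0032 without non-pregnant replicate 3. The probe set 1415801_at read 4.2 to 11.5 on all arrays, within the range of the bacterial TrpnX controls, and was not tested. Several of these probe sets carry the suffix x, by which the array's maker marks probes that can also bind other transcripts, and they all read 1 gene, so they are not separate observations of it.

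Markers of stellate cells and fibroblasts, which are among the cells that make Cx43, had lower values on the pregnant arrays. In this list 3 of 6 tested genes fell and 0 rose, with a median log2 difference of -0.72. The collagens Col3a1 and Col1a2 fell by 0.75 ± 0.11 and 0.73 ± 0.11 (limma adjusted p = 9.5e-04 and 0.0011) on 1 of 2 tested probe sets each, the others having -0.64 and -0.42 (limma adjusted p = 0.19 and 0.28), and the matrix proteoglycan Dcn fell by 1.2 ± 0.14 (limma adjusted p = 2.8e-04). The summed fibroblast signal was 6507 to 6557 on non-pregnant and 3061 to 4412 on pregnant arrays. The part of fibroblast RNA in the Gja1 values was not tested. With the level of acinar markers, described with Gjb2, as a covariate in the fit, Gja1 had -0.12 (limma adjusted p = 0.86). The acinar level largely followed the groups, and its summed signal did not overlap between them. A fit with this covariate therefore tells acinar level and pregnancy apart only poorly.

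Gja4 and Gja5 encode Cx37 and Cx40, the connexins known from endothelial cells of arteries. Gja4 read 191, 198 and 138 on non-pregnant and 159, 179 and 148 on pregnant arrays. The groups overlapped, and the lowest of the 6 values was a non-pregnant one. Its log2 difference was -0.095 ± 0.19 (limma adjusted p = 0.83; interval -0.52 to 0.33). Gja5 read 2.4, 1.3 and 2.9 on non-pregnant and 7.0, 2.5 and 1.6 on pregnant arrays. These values lay within the 1.1 to 32.3 spanned by the 3 bacterial TrpnX control probe sets. Gja5 was not bright enough to be tested, and no fold is given.

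Endothelial markers had signals from near the limit for testing to far above it on the same arrays. All 10 of the list were tested, 1 fell and 0 rose, and the median log2 difference was -0.12. Plvap, of fenestrated capillaries, read a mean of 2464 non-pregnant and 2157 pregnant, and the sialomucin Emcn 2294 and 2136. The marker that fell was the VEGF receptor Flt1 (-0.47 ± 0.099, limma adjusted p = 0.010), on 1 of its 4 tested probe sets, the other 3 having -0.21, -0.47 and -0.25 (limma adjusted p from 0.069 to 0.47). The summed signal was 10314 to 10948 on non-pregnant and 9195 to 10261 on pregnant arrays, without overlap, and its part in the Gja4 values was not tested.

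Gjc1 encodes Cx45, known from smooth muscle and other excitable cells. Its tested probe set (1449094_at) read 239, 211 and 225 on non-pregnant and 161, 201 and 222 on pregnant arrays. Of the pregnant arrays only replicate 3 lay inside the non-pregnant range. The log2 difference was -0.20 ± 0.17 (limma adjusted p = 0.54; interval -0.57 to 0.17), and it was positive, at 0.087, with the acinar covariate. The other Gjc1 probe set read 9.5 to 67.3, with 1 non-pregnant array far above the other 5, and was not tested. Of 6 smooth muscle and pericyte markers tested, 0 passed in limma and 2 had an unadjusted p below 0.05, and their median was -0.17, with 5 of the 6 differences negative. The brightest, the pericyte gene Rgs5, had means of 6468 and 6463. The next, smooth muscle actin Acta2, had 904 and 737, with a log2 difference of -0.29 ± 0.12 (limma adjusted p = 0.17). The smooth muscle protein Tagln had -0.53 ± 0.24 (limma adjusted p = 0.21). Their part in the Gjc1 values was not tested.

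Gjb1 and Gjb2 encode Cx32 and Cx26, the connexins that join acinar cells, the enzyme-secreting cells of the exocrine pancreas. Gjb1 lay within the range of the bacterial TrpnX controls on every array and both probe sets. The first (1448767_s_at) read 3.7, 9.0 and 8.1 on non-pregnant and 6.2, 3.2 and 12 on pregnant arrays. The second read from 1.9 to 6.1, and neither was tested.

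Gjb2 read 70.0, 90.6 and 100.1 on non-pregnant and 103.4, 7.0 and 113.6 on pregnant arrays. The pregnant group held both the lowest and the 2 highest values, so its spread was wide. The log2 difference was -0.53 ± 0.54 (limma adjusted p = 0.63), with an interval of -1.71 to 0.66. The direction rested on pregnant replicate 2, without which the difference was 0.28 (limma adjusted p = 0.65). With any other single array left out it stayed negative, and the adjusted p-values lay between 0.38 and 0.77 over all 6 omissions.

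Acinar RNA was plentiful on the arrays and differed between the groups. Of 16 acinar markers tested, 15 fell and 0 rose, with a median log2 difference of -1.11. The elastase Cela1 went from a mean signal of 36715 ± 9420 (SD, n = 3) to 17102 ± 3101 (n = 3). Another elastase, Cela3b, had means of 36758 and 24776. The summed acinar signal ran from 203020 to 379289 on non-pregnant arrays and from 118534 to 191908 on pregnant ones, without overlap. Gjb1 stayed within the range of the bacterial TrpnX controls on arrays with bright acinar markers. The part of acinar RNA in the Gjb2 values was not tested. Of 4 duct cell markers tested, 1 fell, the keratin Krt7 (-0.27 ± 0.060, limma adjusted p = 0.016), with means of 5594 and 4646. Sox9, the next of that list, had means of 71.1 and 62.7. Krt19 went the other way, with means of 38.4 and 75.1. Its log2 difference was 0.83 ± 0.41 (limma adjusted p = 0.26). The duct list had a median log2 difference of -0.091, with 3 of the 4 differences negative.

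**Figure D2:**
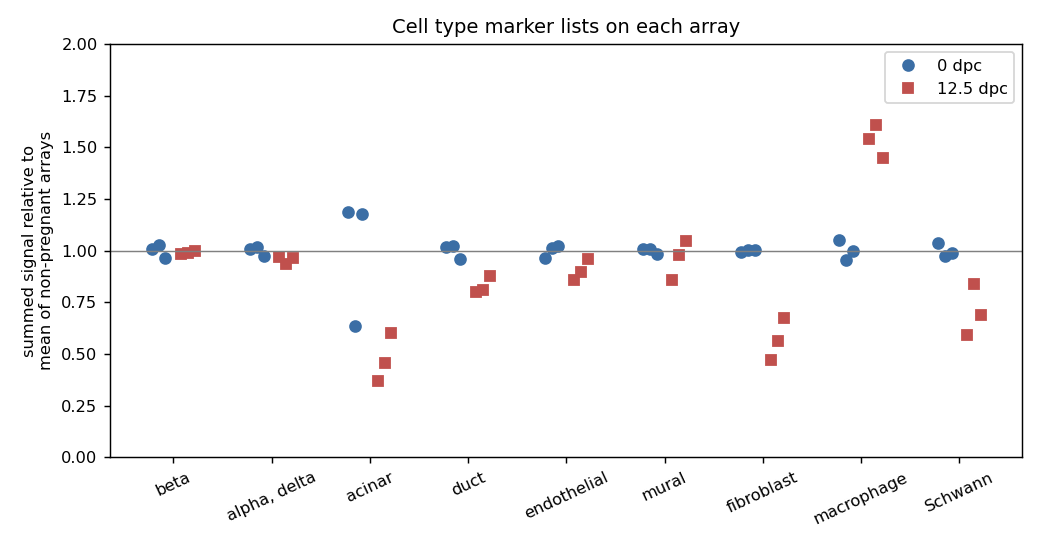
Summed signal of each marker list on each array, divided by the mean of the 3 non-pregnant arrays (vertical axis from 0; blue circles 0 dpc, red squares 12.5 dpc). Beta cell sums lie at 0.967 to 1.03 in both groups, acinar sums at 0.371 to 0.60 and fibroblast sums at 0.468 to 0.675 on the pregnant arrays, and macrophage sums at 1.45 to 1.61.

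Panx1 was the only gap junction gene tested with a higher value in pregnancy. The non-pregnant arrays read 156, 160 and 162, and the pregnant arrays 270, 172 and 235. The non-pregnant values were nearly equal, while the pregnant ones spread from just above them to well above them. The means were 159 ± 3.19 (SD, n = 3) and 226 ± 49.8 (n = 3), a ratio of 1.42, and the log2 difference was 0.44 ± 0.19 (limma adjusted p = 0.18; unadjusted interval 0.031 to 0.85). Leaving out any 1 array gave values from 0.31 to 0.61, all positive, with adjusted p-values in limma from 0.086 to 0.48. With the acinar covariate the difference was 0.37 (limma adjusted p = 0.71).

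Panx1 is also made by macrophages and other leukocytes. Of 8 such markers tested, 1 rose and 0 fell, with a median log2 difference of 0.030. The one that rose was C1qa, a subunit of complement C1q (1.06 ± 0.084, limma adjusted p = 1.1e-05), with means of 3505 and 7300. The summed signal was 6354 to 6998 on non-pregnant and 9649 to 10713 on pregnant arrays, a rise of about the size of that of C1qa. The partner subunit C1qb had -0.17 ± 0.11 and the macrophage receptor Csf1r -0.28 ± 0.087 (limma adjusted p = 0.38 and 0.068). Their part in the Panx1 values was not tested.

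**Figure D3:**
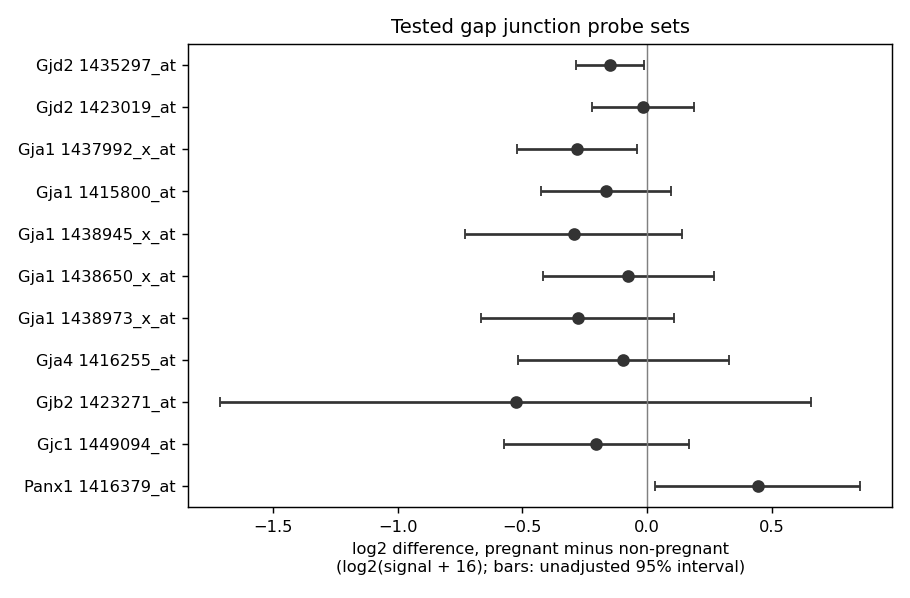
Log2 difference (pregnant minus non-pregnant, horizontal axis) with its unadjusted 95% interval for each of the 11 tested probe sets of the gap junction genes, 1 row per probe set. The intervals of Gjd2 1435297_at and Gja1 1437992_x_at end just below 0 and that of Panx1 starts just above it, the other 8 cross 0, and Gjb2 has the widest.

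By probe set, 0 of the 11 tested passed the adjusted threshold in limma, beside 9.57% of all 27022 tested, and 3 had an unadjusted p below 0.05, beside 22.9%. The groups did not overlap on 4 of the 11, against 27.7% of all, 3 of them lower and 1 higher in pregnancy. The mean was lower in pregnancy on 10 of 11, against 57.2% of all, but 5 of these 10 read Gja1 and 2 read Gjd2.

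The rest of both families gave little signal. Of the other 15 connexin and pannexin genes, 9 had a named probe set and only Panx2, a pannexin known from neurons, was bright enough to be tested. It read 64.8, 110.8 and 82.0 on non-pregnant and 46.1, 87.6 and 85.0 on pregnant arrays, with overlap and a log2 difference of -0.21 ± 0.31 (limma adjusted p = 0.75). The sign turned without pregnant replicate 1, where it had 0.031. The lens connexin gene Gja3 and the genes Gja10, Gjb5, Gjb6, Gjc3, Gjd4, Gje1 and Panx3 were below the filter.

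Transcripts for proteins that hold, carry or remove connexins were also measured. Of 21 such partner genes tested, 1 rose and 3 fell in limma, beside 11.9% of all genes. At an unadjusted p below 0.05 there were 8, beside 27.2%. The list had a median log2 difference of -0.19. Erp29 rose from 1670 ± 31.7 (SD, n = 3) to 2993 ± 72.4 (n = 3). It encodes a chaperone of the endoplasmic reticulum that is known to hold Cx43 subunits apart until they leave it. The groups were far apart, with a log2 difference of 0.84 ± 0.066 (limma adjusted p = 1.0e-05). Cdh2, N-cadherin, whose adhesion brings membranes together for junctions to form, fell from 5667 ± 355 to 4182 ± 83.0 (-0.44 ± 0.063, limma adjusted p = 0.0011). Its second probe set fell by as much (-0.44, limma adjusted p = 0.0024).

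The other 2 partner genes that fell were Nedd4, a ubiquitin ligase that can mark Cx43 for removal, and Dbn1, the actin-binding drebrin, which can tether it. Nedd4 had -0.23 ± 0.059 (limma adjusted p = 0.031) and Dbn1 had -0.58 ± 0.16 (limma adjusted p = 0.047). For both, leaving out any 1 array other than non-pregnant replicate 1 ended the call, with adjusted p-values in limma of 0.056 to 0.11 for Nedd4 and 0.076 to 0.16 for Dbn1. Only 1 of the 3 Nedd4 and 1 of the 2 Dbn1 probe sets passed. Dbn1 did not pass with quantile normalization either (limma adjusted p = 0.069). Cdh2 did not pass without the variance trend (limma adjusted p = 0.065). The scaffold Tjp1 (ZO-1), which binds the tails of several connexins, read a mean of 2987 and 2618 (limma adjusted p = 0.13).

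Of 11 genes of beta cell electrical activity tested, the channels and receptors whose rhythm Cx36 is known to synchronise, 0 passed in limma and 3 had an unadjusted p below 0.05. Over all genes tested the shares were 11.9% and 27.2%. The median log2 difference of the 11 genes was -0.042. Each gene was counted by its brightest probe set, and Atp2a2, the calcium pump SERCA2, had 0.065 there (limma adjusted p = 0.46). Of its 6 tested probe sets 2 passed, both lower in pregnancy, with -0.26 and -0.30 (limma adjusted p = 0.046 and 0.036). Among genes counted by their brightest probe set, the closest was Scn9a, a voltage-gated sodium channel, which read 565, 950 and 530 on non-pregnant and 854, 1130 and 1068 on pregnant arrays. Non-pregnant replicate 2 lay among the pregnant values. The log2 difference was 0.61 ± 0.19 (limma adjusted p = 0.065), it was 0.87 without that array (limma adjusted p = 0.0019) and 0.065 with the acinar covariate (limma adjusted p = 0.95). It also passed with median centring (0.68, limma adjusted p = 0.028). In the main fit 0 of the 5 tested Scn9a probe sets passed, and their average had 0.45 (limma adjusted p = 0.16).

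The calcium channel Cacna1d had -0.28 ± 0.089 (limma adjusted p = 0.069). For the pore and the sulfonylurea receptor of the ATP-sensitive potassium channel, Kcnj11 had 0.19 ± 0.079 and Abcc8 -0.10 ± 0.058 (limma adjusted p = 0.16 and 0.34). Kcnj11 had -0.0028 with its 2 probe sets averaged, and Abcc8 had 0.025 with the acinar covariate.

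Among 10 tested genes for ATP release, its receptors and its breakdown, the setting in which Panx1 acts, 1 rose and 1 fell in limma. This stands beside 11.9% of all genes tested. At an unadjusted p below 0.05 there were 3, beside 27.2%, and the median log2 difference was -0.025. Slc17a9, the transporter that loads ATP into vesicles, read 154, 148 and 206 on non-pregnant and 308, 320 and 336 on pregnant arrays. The groups were well apart, with a log2 difference of 0.88 ± 0.16 (limma adjusted p = 0.0054), but its second probe set had 0.23 (limma adjusted p = 0.59). With the acinar covariate the first had 1.15 (limma adjusted p = 0.076). P2ry1, a receptor for ADP and ATP, fell from 973 ± 42.0 (SD, n = 3) to 587 ± 42.1 (n = 3), a log2 difference of -0.72 ± 0.096 (limma adjusted p = 6.2e-04). The enzymes that break down extracellular ATP did not pass, with Entpd3 at 0.16 ± 0.068 and Entpd1 at -0.48 ± 0.23 (limma adjusted p = 0.18 and 0.24).

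**Figure D4:**
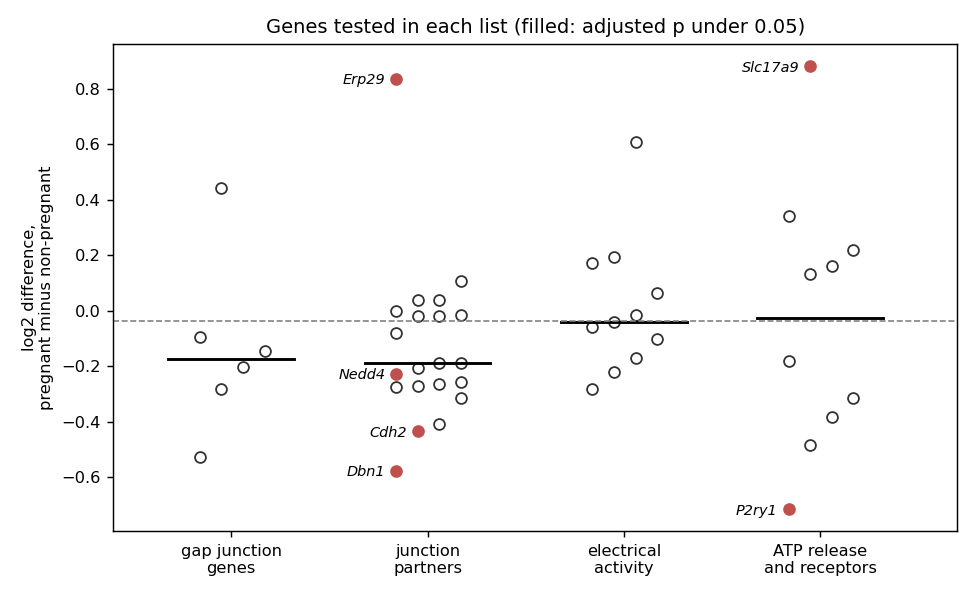
Log2 difference (pregnant minus non-pregnant, vertical axis) of each tested gene in the gap junction, partner, electrical activity and ATP lists, with filled named points for adjusted p under 0.05, a black bar at each list's median and a dashed line at the median of all genes tested, -0.036. Filled points are Erp29, Nedd4, Cdh2 and Dbn1 among the partners and Slc17a9 and P2ry1 among the ATP genes, and the gap junction column has none.

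The arrays carried the islet signal that their labels name. Among endocrine markers, Iapp had mean signals of 49772 and 50499, G6pc2 36454 and 37870, Gcg 48010 and 46589, and Ttr 48869 and 45301 in non-pregnant and pregnant islets. Of 6 alpha and delta cell markers tested, 1 fell, the alpha cell transcription factor Irx1 (-0.40, limma adjusted p = 0.033), and 0 rose. Of 2 glial markers tested, Sox10 and S100b, 0 passed in limma and 0 had an unadjusted p below 0.05, with means of 154 and 113 for Sox10 and 81.0 and 55.2 for S100b. No marker was at 0 on any array, the lowest signal of the whole table being 0.1. Array medians lay between 86.1 and 100.3.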

How the data were processed

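The deposited table holds an intensity on a linear scale for each probe set and array, a MAS5 signal that the authors had scaled, per the submitters' processing notes and the common trimmed mean of 500.003. The software settings were not given in the sources used here. No detection calls entered the fit. Biotinylated cRNA was made from total RNA, per the labels' protocols. Values were taken as log2(signal + 16) with no further scaling. The 64 AFFX controls were left out, and the top 60% of probe sets by mean log2 value, 27022 in all, were tested. The lowest mean log2 value among them was that of a signal of about 50.5, and single arrays could read lower. The test used limma 3.58.1 in R 4.3.3 (lmFit, eBayes with a variance trend, 2-sided, Benjamini-Hochberg adjusted p under 0.05 over all tested). The fit was tested on simulated data. A gene was represented by its tested probe set of highest mean log2 value. Symbols came from the platform annotation, checked through RefSeq (0 changed); 932 probe sets with several symbols and 9211 without one were not named.

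Members and lists were chosen with earlier results of these data known. Besides all members, the rule named up to 4 genes of smallest p per pathway list and the 2 brightest of each marker list. Slc2a2, Slc30a8, Flt1, Dcn, C1qb, Irx1, Tagln, Krt19, Atp2a2, Prkca, Cav1 and Tjp1 were added after their values were seen. Alternatives were other pseudocounts, quantile normalization, median centring, other filters and variance models, array weights, a replicate block, leaving out 1 array at a time, averaged probe sets and an acinar covariate. The acinar covariate largely followed the groups, so fits with it separate acinar level from pregnancy only poorly. No set test was run. Promoters were searched in Python 3.11.15.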

Additional observations from a re-analysis of the deposited data

How the results depend on the processing

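Under all 18 alternatives, 0 gap junction genes were called in limma. The brighter Gjd2 probe set (-0.20 to -0.072), the brightest Gja1 probe set (-0.34 to -0.12), Gja4 (-0.37 to -0.0084) and Panx1 (0.31 to 0.61) kept their direction. Gjb2 ran from -0.96 to 0.28 with 1 array left out, and Gjc1 had 0.087 with the acinar covariate. The second Gjd2 probe set had 0.0048 with quantile normalization, 0.060 with median centring, 0.037 with the acinar covariate and -0.066 to 0.047 with 1 array left out. The Gja1 probe set 1438650_x_at had 0.18 with that covariate and -0.14 to 0.0032 with 1 array left out. Panx2 ran from -0.36 to 0.031 with 1 array left out, Kcnj11 had -0.0028 with averaged probe sets and Abcc8 had 0.025 with the covariate.

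Of the junction partners, 4 were called, against 2 with median centring, no filter, the acinar covariate or averaged probe sets, 1 without the variance trend and 2 to 5 with 1 array left out (5 without non-pregnant replicate 1, which adds Cav1 at an adjusted p of 0.029, and 2 without any other). Of the electrical activity genes 1 was called with median centring, 1 with the replicate block and 0 to 1 with 1 array left out (1 without non-pregnant replicate 2), and of the ATP genes 1 with the acinar covariate. Over all probe sets 2587 were called, 603 without the trend, 475 with the covariate and 1482 to 2259 with 1 array left out (1482 and 1577 without pregnant replicates 1 and 2). With median centring, 1428 were higher and 586 lower. The causes were not tested. Same-numbered arrays did not deviate together (correlations of -0.027, -0.066 and 0.028), but this cannot show whether they were prepared in pairs. With the block, 2356 probe sets were called in limma, Gjd2 had an adjusted p of 0.21 and Scn9a 0.017. Of the partners 4 were called, but Dbn1 was lost (0.064) and Prkca added (0.038). Probe sets with a mean log2 value below that of a signal of about 50.5, including those of Gja5 and Gjb1, allow no comparison here.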
